A study of Mus musculus with 52 samples.

Results

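The libraries described here hold RNA of mouse CD8+ T cells 4 days after activation by dendritic cells (DCs), grown in wells coated with the chemokine CCL21 and the adhesion molecule ICAM1 or in wells without that coating. They are 10 of the 52 libraries of the series, chosen by their titles: 5 coated and 5 uncoated libraries that carry M numbers 6 to 10, so that each coated library has an uncoated partner with the same M number. Coated cells were thus CD8+ T cells of OT-I mice, activated by DCs loaded with an ovalbumin peptide and sampled at day 4 from coated wells. Uncoated cells had the same source, activation and day, in wells with no coating. In OT-I mice the T cells carry 1 transgenic receptor for this peptide. The T cells of all 10 libraries were selected magnetically from spleen, and the DCs were selected by CD11c from spleens of C57BL/6 mice and mixed with the T cells at a T to DC ratio of 3 to 1. All 10 titles also carry the number 120, which the labels do not explain. The labels do not tell whether M numbers stand for different animals or cultures, and p-values therefore cover only the spread among these libraries, which may be technical.

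CCL21 is the ligand of CCR7, the receptor that leads naive T cells into lymph nodes. ICAM1 is the ligand of the integrin LFA-1, through which T cells hold on to other cells during activation. After a CD8+ T cell meets its antigen it divides, gives up much of its naive programme (TCF-1 and CCR7 among others) and builds cytotoxic granules with granzymes and perforin. The comparison asks what the coating does to DC-activated cells at day 4.

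Coated libraries held 1430247 to 4348557 counts and uncoated libraries 1140327 to 4455543, with 6.3% to 8.4% of them in the 10 most abundant genes of a library. All 12 CD8+ T cell markers were among the genes counted, and their summed level was 12540 to 16890 CPM (counts scaled to the same library size) in coated and 16400 to 20020 CPM in uncoated libraries. The first principal component, with 39.2% of the variance of the 1000 most variable genes, separated coated from uncoated libraries without overlap. The second, with 20.9%, set both libraries of M number 8 apart from the other 8. Where leaving out M number 8 ends a call, the value without it is given. Deviations from the group means of libraries with the same M number correlated in every pair (0.131 to 0.343), and M number is a block in the fits. In bulk RNA, fewer cells of a type and less RNA per cell cannot be told apart.

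The coating effect reached a large part of the genes measured. Of 9159 genes tested, 1271 rose (13.9%) and 1267 fell (13.8%) in coated cells at an adjusted p under 0.05 in the quasi-likelihood test of edgeR, in all 2538 (27.7%). Of these, 83 rose and 253 fell by at least 2-fold. The shares of all genes, 13.9% and 13.8%, are those that each count of risen or fallen list genes below stands against. Groups did not overlap for 1109 genes (12.1%), of which 1009 were called, and 2160 of the called genes moved the same way in all 5 pairs. Without M number as a block, 866 genes rose and 817 fell. With both libraries of M number 7 left out, 605 rose and 724 fell, and without M number 6 681 and 742. The pairs differed in the size of the change: the median absolute log2 change of all genes was 0.45 in pair M8 and 0.27 to 0.36 in the other 4.

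**Figure D1:**
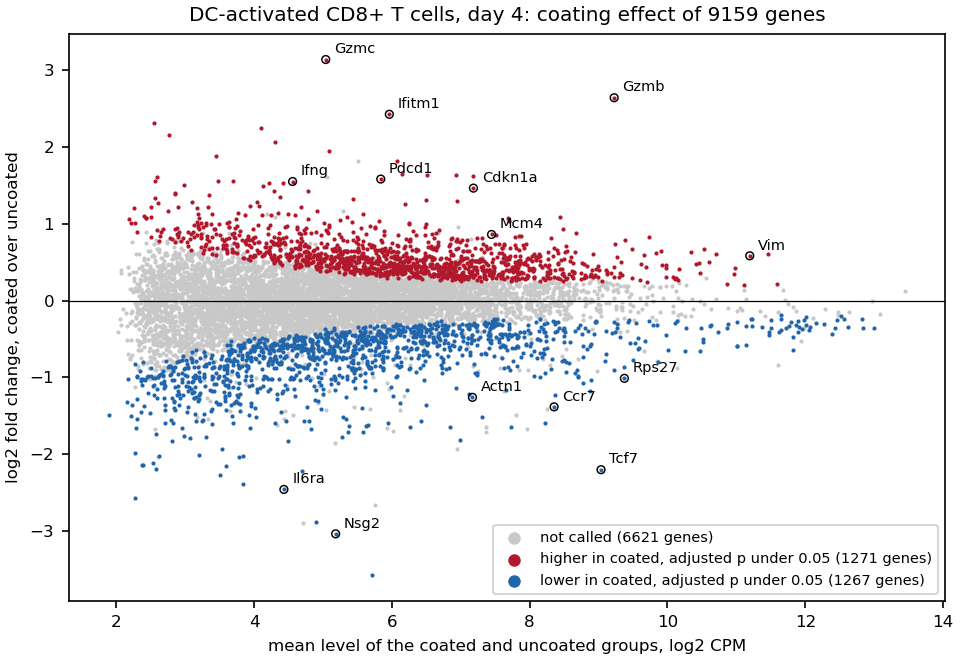
Each point is 1 of the 9159 genes tested, by its mean level (log2 CPM, x axis) and its log2 fold change of coated over uncoated cells (y axis). Red points (1271) rose and blue points (1267) fell at an adjusted p under 0.05, and some genes are labelled, with Gzmc (3.14) at the top and Nsg2 (-3.04) near the bottom.

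All 3 granzyme transcripts that could be tested rose, while perforin and 7 other granule genes did not pass the test. Gzmb (chr14:56258838-56262260, minus strand) encodes granzyme B, the main death-inducing protease of cytotoxic granules. It had 1059, 1651, 1757, 390 and 425 CPM in coated libraries M6 to M10, against 152, 162, 136, 136 and 125 CPM in uncoated libraries M6 to M10. Every coated library lay above every uncoated one, and coated M9 and M10 were well below coated M6 to M8. Its log2 fold change was 2.64 ± 0.43 (SE, 5 pairs, adjusted p = 0.0166), with single pairs from 1.52 (M9) to 3.69 (M8). The call was lost without M number 6 (log2 2.59, adjusted p = 0.075) or without M number 7 (2.44, adjusted p = 0.0651).

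Gzmc (chr14:56231441-56234656, minus strand), a neighbouring granzyme gene, had 64.3, 92.3, 99.1, 30.3 and 13.6 CPM in coated libraries M6 to M10, against 7.43, 10.0, 1.74, 6.398 and 4.13 CPM in the uncoated ones. The groups did not overlap, and coated M10 was the lowest coated library. The log2 fold change was 3.14 ± 0.33 (adjusted p = 0.000398). Gzmc has neighbours of closely similar sequence (Gzmd to Gzmg), so reads may be split among them. These did not pass the filter on low counts: Gzmf had 18 counts over the 5 coated and 1 count over the 5 uncoated libraries, Gzmd 6 and 0, and Gzme 2 and 1. Gzma, the granzyme with trypsin-like activity, was low in both groups (8.94 ± 3.14 in coated and 3.15 ± 2.21 CPM in uncoated cells, SD, n = 5 each) and rose by log2 1.61 ± 0.37 (adjusted p = 0.00713, but 0.0599 without M number 6).

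Of 15 tested genes of cytotoxic granules, 4 rose (Rab27a, which docks granules, was the fourth) and 3 fell, with a median log2 change of -0.02 against -0.01 over all genes tested. Serpinb6b, a granzyme inhibitor family member, fell by 1.18 (log2; adjusted p = 0.0027), but had an adjusted p of 0.238 without the block. The lysosomal membrane protein gene Lamp1 fell by 0.34 (adjusted p = 0.0598 without M number 8). Without M number 6 1 granule gene rose and 2 fell. Prf1, the pore-forming protein perforin, had 14.9, 20.8, 20.6, 15.6 and 25.8 CPM in coated libraries M6 to M10 and 16.4, 24.1, 24.4, 22.1 and 18.9 CPM in uncoated ones. It was lower in the coated library of 4 pairs and higher in that of 1, and the groups overlapped (log2 -0.14 ± 0.17, adjusted p = 0.588).

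**Figure D2:**
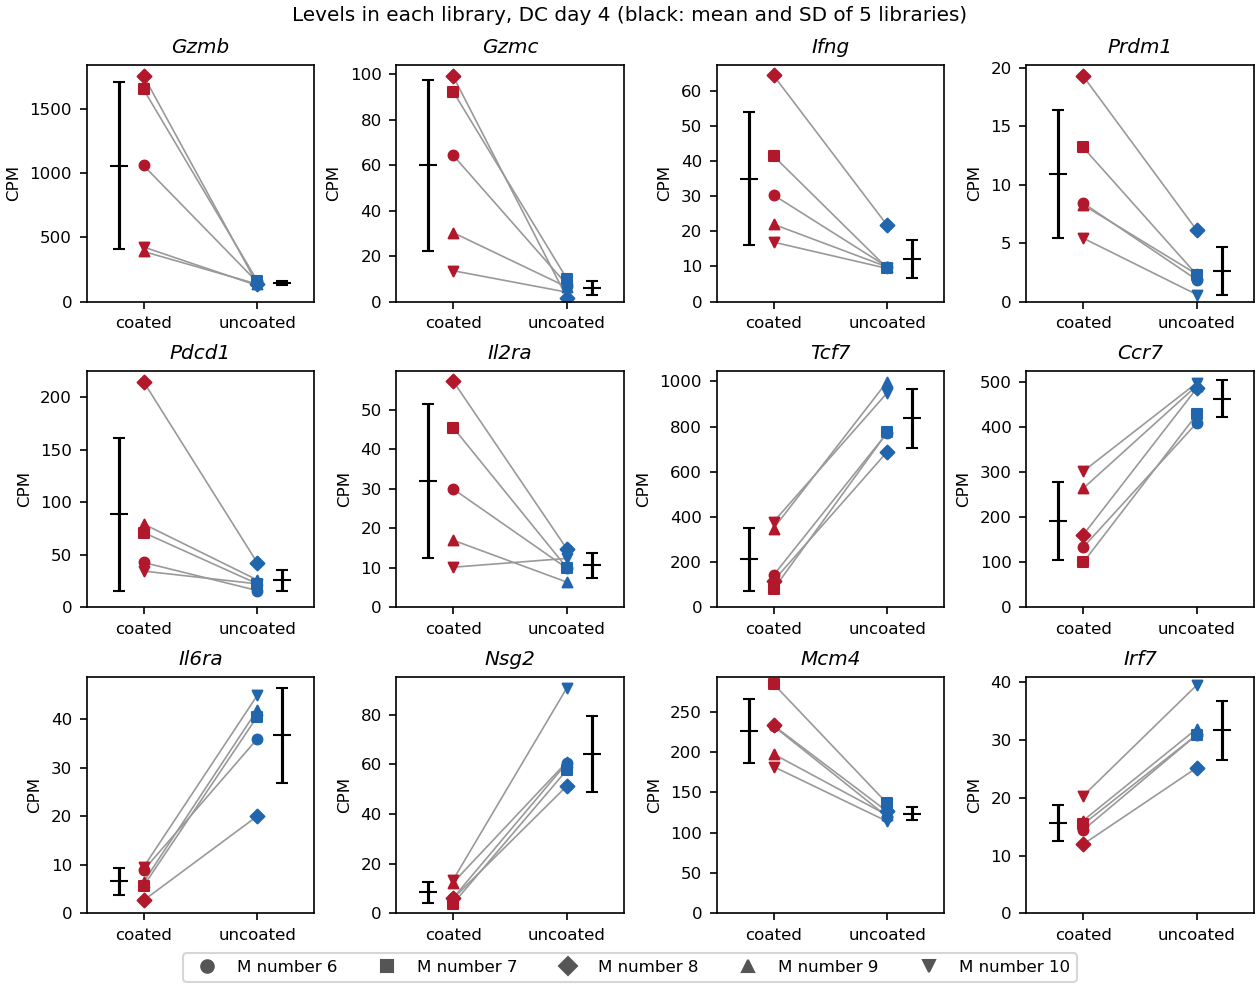
Levels in CPM (y axis, from 0) of 12 genes in each library, coated left (red) and uncoated right (blue), with 1 symbol per M number, grey lines joining the 2 libraries of an M number, and the mean and SD of 5 libraries in black. Gzmb, Gzmc and Mcm4 lie higher and Tcf7, Ccr7, Il6ra, Nsg2 and Irf7 lower in every coated library than in any uncoated one. Il2ra was the only gene of the 12 with a pair (M10) in the other direction.

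Cytokine and cytokine receptor genes moved in both directions. Ifng (chr10:118441046-118445892, plus strand), the gene of interferon gamma, had 30.4, 41.5, 64.5, 22.04 and 17.0 CPM in coated libraries M6 to M10, against 9.90, 9.56, 21.7, 9.89 and 9.44 CPM in uncoated ones. It was higher in the coated library of all 5 pairs, and the groups overlapped through uncoated M8 alone. The log2 fold change was 1.55 ± 0.19 (adjusted p = 0.000171). Of 13 tested cytokine and chemokine genes 3 rose and 2 fell (1 fell in the Wald test of DESeq2, without M number 6 or without M number 7). Of all genes tested 13.9% rose and 13.8% fell. Among the cytokine genes that rose was Csf1, a growth factor of macrophages, at log2 1.11 (20.5 ± 4.84 in coated against 8.70 ± 2.09 CPM in uncoated cells). Ltb, which encodes lymphotoxin beta, fell by 0.80 (log2; 687 ± 166.5 in coated against 1169 ± 104 CPM in uncoated cells, no overlap). Tnfsf8, the ligand of CD30, fell by 1.21 (log2; adjusted p = 0.098 in the Wald test of DESeq2).

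The alpha and beta chains of the interleukin 2 receptor rose. Il2ra, the alpha chain that makes it high-affinity, had 29.9, 45.5, 57.2, 17.0 and 10.2 CPM in coated libraries M6 to M10, against 9.90, 10.0, 14.8, 6.398 and 12.4 CPM in uncoated ones. Coated M10 lay below its partner, and the other 4 pairs went the other way (log2 1.53 ± 0.28, adjusted p = 0.00308). The beta chain Il2rb had 725 to 981 CPM in coated and 388 to 560 CPM in uncoated libraries, without overlap (log2 0.78 ± 0.11, adjusted p = 0.000267). Among the negative feedback regulators of cytokine signalling, Socs2 rose by log2 0.99 (120 ± 20.8 in coated against 60.2 ± 16.5 CPM in uncoated cells, no overlap) and Cish by 1.33. Coated M8 stood above the rest in Cish (175 CPM, the other 4 coated libraries 23.1 to 58.4 CPM). Its adjusted p of 0.0454 was 0.168 without M number 7, 0.1 without M number 6, 0.079 without M number 10 and 0.0811 without the block.

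Other cytokine receptors fell or rose: 6 of 22 tested cytokine receptor genes rose (3 without the block, without M number 6 or without M number 7) and 9 fell. Il6ra (chr3:89864059-89913196, minus strand), the ligand-binding chain for interleukin 6, had 8.87, 5.61, 2.66, 6.43 and 9.49 CPM in coated libraries M6 to M10, against 35.9, 40.5, 20.01, 41.9 and 44.9 CPM in uncoated ones. No coated library reached the lowest uncoated one (log2 -2.46 ± 0.19, adjusted p = 5.78e-06). Il4ra, the interleukin 4 receptor, fell by 1.04 (log2; 58.5 ± 15.1 in coated against 118 ± 20.2 CPM in uncoated cells). Il7r, the receptor chain for the survival factor interleukin 7, fell by 1.10 (log2; 14.4 ± 7.79 in coated against 29.3 ± 7.11 CPM in uncoated cells, overlapping). The signal transducer Stat2 fell by 0.97, without overlap.

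Of 18 tested effector transcription factors 6 rose and 4 fell. Prdm1 (chr10:44437177-44528501, minus strand) encodes Blimp-1, which drives terminal effector differentiation. It had 8.43, 13.2, 19.3, 8.26 and 5.43 CPM in coated libraries M6 to M10, against 1.86, 2.28, 6.09, 2.33 and 0.59 CPM in uncoated ones. All 5 pairs were higher in the coated library, although uncoated M8 exceeded coated M10 (log2 2.16 ± 0.29, adjusted p = 0.00027). Rbpj, the DNA-binding partner of Notch, rose by log2 1.32 ± 0.13 (130 ± 64.3 in coated against 49.9 ± 13.8 CPM in uncoated cells), and Xbp1, a factor of secretory cells, by 0.81. Runx1 fell by 1.27 (log2), and Ikzf2 by 0.84 (adjusted p = 0.0984 without M number 6). Of the list, 4 rose and 1 fell without M number 7, and 5 and 1 without M number 6. Tbx21, which encodes T-bet, had log2 0.42 ± 0.16 (adjusted p = 0.0672, higher in 5 of 5 pairs), and Myc -0.09 ± 0.12 (adjusted p = 0.606). Eomes did not pass the filter (34 counts over the 5 coated and 37 over the 5 uncoated libraries).

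Genes of naive and memory T cells fell as a group. Of 26 tested transcription factors of naive and memory cells 17 fell (median log2 -0.52), and of 21 tested surface genes 18 fell (median -1.24), against 13.8% of all genes. Without M number 6 8 of the transcription factors fell, and without M number 7 11. Tcf7 (chr11:52252371-52283014, minus strand) encodes TCF-1, a factor of naive and stem-like memory cells. It had 142, 80.5, 118, 349 and 378 CPM in coated libraries M6 to M10, against 772, 774, 688, 999 and 949 CPM in uncoated ones. All coated libraries lay below all uncoated ones, with coated M9 and M10 the closest (log2 -2.20 ± 0.35, adjusted p = 0.013). The call was lost without M number 6 (log2 -2.14, adjusted p = 0.0608) or M number 8 (-2.11, adjusted p = 0.0565).

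Lef1, a factor related to TCF-1, fell by 0.88 ± 0.12 (log2; 81.4 ± 29.3 in coated against 146 ± 24.97 CPM in uncoated cells), and the repressor Klf3 fell by 2.02 ± 0.26 (5.62 ± 3.33 against 23.2 ± 8.75 CPM). Nsg2 (chr11:32000463-32059202, plus strand) encodes a vesicle protein studied mainly in neurons. It had 6.21, 3.93, 5.99, 12.4 and 13.6 CPM in coated libraries M6 to M10, against 60.7, 57.8, 51.3, 61.1 and 90.9 CPM in uncoated ones. The highest coated library lay far below the lowest uncoated one (log2 -3.04 ± 0.20, adjusted p = 1.21e-06). Slamf6, a costimulatory receptor kept on stem-like cells, had 18.4, 4.77, 2.00, 54.6 and 21.0 CPM in coated libraries M6 to M10, against 70.9, 33.5, 17.4, 93.1 and 72.6 CPM in uncoated ones. The groups overlapped, and all 5 pairs were lower in the coated library (log2 -1.78, adjusted p = 0.00237, but 0.191 without the block). Cd44, raised on antigen-experienced cells, had log2 0.22 ± 0.12 (adjusted p = 0.187).

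The receptor of the coated chemokine was lower in coated cells, whereas the receptor of ICAM1 was not called. Ccr7 (chr11:99144196-99155077, minus strand) had 133, 99.9, 161, 264 and 302 CPM in coated libraries M6 to M10, against 409, 428, 486, 492 and 498 CPM in uncoated ones. No coated library reached an uncoated one, and coated M9 and M10 were the highest of the coated (log2 -1.39 ± 0.21, adjusted p = 0.00399). Itgal (chr7:127296260-127335138, plus strand), the alpha chain of LFA-1, had 235 to 318 CPM in coated and 203 to 308 CPM in uncoated libraries (log2 0.09 ± 0.09, adjusted p = 0.504). Its beta chain Itgb2 (chr10:77530252-77565708, plus strand) had log2 0.03 ± 0.10 (adjusted p = 0.839), and Icam1 itself -0.37 ± 0.15 (lower in 5 of 5 pairs, adjusted p = 0.079).

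Of 9 tested chemokine and lipid receptors 5 fell. They included S1pr4, a receptor of sphingosine 1-phosphate, by log2 0.74 (178 ± 55.2 in coated against 290 ± 44.7 CPM in uncoated cells) and the lipid receptor Gpr132 by 0.61. Cxcr4, the receptor of CXCL12, fell by 1.21, with 45.3 CPM in uncoated M8 and 9.33 to 14.5 CPM in the other 4 uncoated libraries, and had an adjusted p of 0.0855 without the block. S1pr1, which leads T cells out of lymph nodes, had log2 -1.17 ± 0.42 (adjusted p = 0.111, lower in 5 of 5 pairs; 0.027 in the Wald test). Among 24 genes of G protein signalling 2 rose and 6 fell, with Rgs10 and Rgs3, which switch off G proteins, lower by 0.75 and 0.87 (Rgs10 with an adjusted p of 0.0532 without the block). Their relative Rgs16 rose by 0.92 (adjusted p = 0.0394, but 0.151 without the block or without M number 7 and 0.113 without M number 9).

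Of 24 tested integrin, ICAM and adhesion genes 2 rose and 9 fell. Selp (chr1:164115264-164150026, plus strand), which encodes P-selectin, had 11.1, 6.17, 2.66, 14.7 and 12.2 CPM in coated libraries M6 to M10, against 49.5, 39.8, 27.9, 41.3 and 54.9 CPM in uncoated ones, with no overlap (log2 -2.23 ± 0.20, adjusted p = 2.82e-05). Itga4, the alpha chain of the integrin VLA-4, fell by 1.44, and the lactate transporter chaperone Emb by 0.61. Vcl, which encodes vinculin and couples integrins to actin, rose by 1.21 from a low level (10.4 ± 3.01 in coated against 4.52 ± 0.74 CPM in uncoated cells, adjusted p = 0.00672, but 0.0568 without M number 6). Without M number 6 none of the adhesion genes rose. Of 48 genes of integrin activation and actin 8 rose and 11 fell (4 and 8 without M number 6 or without M number 7). The shares of all genes tested were 13.9% and 13.8%. The intermediate filament gene Vim rose by 0.58 (2812 ± 364 in coated against 1874 ± 212 CPM in uncoated cells, no overlap) and the actin-binding Tagln2 by 0.47. The actin crosslinker Actn1 fell by 1.26 (87.1 ± 26.3 in coated against 201 ± 26.7 CPM in uncoated cells, no overlap) and the adaptor Fyb, which links the receptor to integrin activation, by 0.95.

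Genes of DNA replication rose with little difference between the pairs. Of 72 tested genes of S phase 65 rose, against 13.9% of all genes, and all 72 had a positive fold change (0.07 to 1.12). The median of the list was 0.59, 0.56, 0.58, 0.51 and 0.60 in pairs M6 to M10. Pairs M9 and M10, in which granzymes moved least, thus had the lowest and the highest of these medians. Mcm4 (chr16:15623897-15637400, minus strand), a subunit of the replicative helicase, had 232, 284, 233, 197 and 182 CPM in coated libraries M6 to M10, against 120, 136, 126, 122 and 114 CPM in uncoated ones. The lowest coated library lay above the highest uncoated one (log2 0.86 ± 0.09, adjusted p = 8.44e-05). Tk1, the thymidine kinase of S phase, rose by 0.81, the licensing factor Cdc6 by 0.97 and the origin recognition subunit Orc1 by 1.12.

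Of 25 genes of G1 cyclins, E2F factors and cell cycle inhibitors 16 rose and 1 fell. Ccne1, the cyclin that starts S phase, rose by log2 0.90 ± 0.10 (103 ± 14.1 in coated against 55.8 ± 11.03 CPM in uncoated cells) and Cdc25a, the phosphatase that activates its kinase, by 1.13 ± 0.14. Cdkn1a, the inhibitor p21, rose by 1.47 ± 0.16 (219 ± 134 in coated against 72.0 ± 20.3 CPM in uncoated cells). Cdkn1b, the inhibitor p27 of resting cells, fell by 0.95 (8.51 ± 1.99 in coated against 15.8 ± 5.87 CPM in uncoated cells, adjusted p = 0.0109, but 0.0923 without M number 6). The call was also lost without M number 7 (0.0638) and in the Wald test (0.0563). Of 72 genes of G2 and mitosis 26 rose and 2 fell, with a median of 0.22 (15 rose without the block or without M number 7, 16 without M number 6). Hmgb2, a chromatin protein of dividing cells, rose by 0.83 and the tubulin gene Tubb4b by 0.60, while Cdc25b fell by 0.98 and the condensin subunit Smc4 by 0.47. Mki67, the proliferation marker Ki-67, was higher in the coated library of 5 of 5 pairs (341 ± 84.7 in coated against 276 ± 57.8 CPM in uncoated cells, log2 0.29 ± 0.08, adjusted p = 0.0207). It was not called without the block (adjusted p = 0.286) or without M numbers 6, 7 or 10 (0.0711, 0.0601 and 0.0556).

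E2F factors bind promoters of many S phase genes. Promoter windows of RefSeq (GRCm38.p6, the assembly that mm10 names) were at hand for 7054 of the 9159 genes tested, and for 56 of the 72 S phase genes (77.8%). The 250 bases before the gene start were searched on both strands for the E2F motifs TTTCCCGC and TTTGGCGC. A gene may have more than 1 window, and it is counted once if any of them holds a motif. They were held by 9 of the 56 S phase genes and by 3.29% of all tested genes with a window. Because under 80% of the list has a window, a comparison of these shares is void. The 4 S phase genes with the smallest p among those that rose and hold a motif are shown 5′ to 3′ along the gene's strand, each with 60 bases on either side where the window allows, to let the motif be seen in its context. Capitals mark the motif, which reads as its reverse complement in Cdc6 and Mcm5.
Cdc6 (chr11:98907953-98908080, plus strand): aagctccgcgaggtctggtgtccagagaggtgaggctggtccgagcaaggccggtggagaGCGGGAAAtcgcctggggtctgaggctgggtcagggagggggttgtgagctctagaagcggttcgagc
Mcm6 (chr1:128359706-128359875, minus strand): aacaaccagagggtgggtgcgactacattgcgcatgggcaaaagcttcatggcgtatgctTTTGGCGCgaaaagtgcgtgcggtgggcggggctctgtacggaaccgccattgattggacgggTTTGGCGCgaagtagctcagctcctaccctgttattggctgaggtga
Mcm5 (chr8:75109300-75109427, plus strand): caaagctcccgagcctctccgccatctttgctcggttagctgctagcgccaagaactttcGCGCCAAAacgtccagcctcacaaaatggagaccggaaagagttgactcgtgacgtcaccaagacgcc
Dtl (chr1:191575545-191575612, minus strand): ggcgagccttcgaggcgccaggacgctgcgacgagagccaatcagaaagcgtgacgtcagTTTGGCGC
Besides Cdc6 (67.9 ± 8.14 in coated against 34.8 ± 5.39 CPM in uncoated cells), the helicase subunits Mcm6 and Mcm5 rose by log2 0.61 and 0.63, and Dtl, which marks the licensing factor Cdt1 for destruction, by 0.72. Mcm6 holds the motif at 2 places in its window. In Dtl it ends at the gene start.

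Interferon response genes fell, in contrast to the interferon gamma gene itself. Of 43 tested genes 30 fell and 2 rose, with a median log2 change of -0.73 and medians of -0.57 to -0.92 in the single pairs. Irf7, the master factor of type I interferon induction, had 14.4, 15.4, 11.97, 16.1 and 20.3 CPM in coated libraries M6 to M10, against 30.9, 30.9, 25.2, 32.0 and 39.6 CPM in uncoated ones. The groups did not overlap (log2 -1.02 ± 0.15, adjusted p = 0.000399). Samhd1, a restriction factor that depletes nucleotides, fell by 0.90 (224 ± 48.3 in coated against 413 ± 56.4 CPM in uncoated cells) and Slfn1, a gene of the Schlafen family, fell by 2.15 (4.44 ± 3.06 against 19.6 ± 5.86 CPM). Bst2 (tetherin) rose by 0.29 and the exonuclease gene Isg20 by 0.41, and neither was called without M number 6 (adjusted p = 0.172 and 0.222) or without M number 8 (0.105 and 0.0539).

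Factors induced by interferon bind the ISRE motif, here GAAANNGAAA on either strand. RefSeq windows were at hand for 32 of the 43 interferon response genes (74.4%). The motif was held by 14 of these 32 genes and by 3.16% of all tested genes with a window. With under 80% of the list covered, a comparison of the shares is void here too. The 3 genes with the smallest p among those that fell and hold the motif are shown in the same way, the motif in capitals. In Stat2 and Gbp2 it reads as its reverse complement.
Ifi203 (chr1:173942493-173942587, minus strand): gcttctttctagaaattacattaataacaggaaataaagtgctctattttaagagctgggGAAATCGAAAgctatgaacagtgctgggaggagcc
Stat2 (chr10:128270248-128270345, plus strand): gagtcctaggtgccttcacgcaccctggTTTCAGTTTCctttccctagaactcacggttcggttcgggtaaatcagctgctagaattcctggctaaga
Gbp2 (chr3:142620544-142620662, plus strand): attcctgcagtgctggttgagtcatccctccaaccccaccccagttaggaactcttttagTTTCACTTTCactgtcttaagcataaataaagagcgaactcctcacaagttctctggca
Ifi203, a DNA-binding member of the interferon-inducible p200 family, had 28.3 ± 6.51 in coated against 58.0 ± 9.31 CPM in uncoated cells (log2 -1.05 ± 0.14). Stat2, part of the factor that binds this motif, had 25.6 ± 4.36 against 49.5 ± 1.19 CPM (log2 -0.97 ± 0.14). The guanylate-binding protein gene Gbp2 had 30.8 ± 8.53 against 56.5 ± 9.23 CPM (log2 -0.89 ± 0.12). No coated library reached an uncoated one for any of the 3.

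The Ifitm genes, which encode small antiviral membrane proteins, went the other way: all 3 tested rose. Ifitm1 (chr7:140967221-140969825, plus strand) had 120, 138, 136, 64.3 and 70.5 CPM in coated libraries M6 to M10, against 18.6, 28.2, 17.4, 13.4 and 18.3 CPM in uncoated ones. The lowest coated library was far above the highest uncoated one (log2 2.43 ± 0.14, adjusted p = 1.01e-06, the smallest of all genes tested). Ifitm3 rose by 1.28 ± 0.21 and Ifitm2 by 0.83 ± 0.16, both also without overlap. Ifitm transcripts are alike in sequence, so reads may be shared among them.

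A part of the MHC class I presentation genes fell too. Of 22 tested 12 fell and 1 rose, the chaperone Pdia3. H2-K1 and H2-D1, the classical class I heavy chains, fell by 0.59 (log2; 1668 ± 331 in coated against 2472 ± 187 CPM in uncoated cells) and 0.58, both without overlap. H2-Q7 and H2-Q6, nonclassical chains of the Qa-2 group, fell by 1.65 and 1.72. They are near-identical to each other, so the split between them is uncertain. B2m, the light chain of all class I molecules, had 31.3, 28.3, 31.9, 609 and 31.9 CPM in coated libraries M6 to M10, against 102, 42.3, 68.7, 419 and 152 CPM in uncoated ones. Both M9 libraries stood far above the rest, and the adjusted p was 0.251 with them and 0.00711 without M number 9 (log2 -1.41).

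Many genes of biosynthesis rose. Of 27 tested genes of nucleotide and one-carbon synthesis 20 rose (median 0.52). Ctps, which makes CTP, had 48.6, 62.0, 80.5, 35.4 and 34.6 CPM in coated libraries M6 to M10, against 31.3, 30.3, 23.5, 18.6 and 16.5 CPM in uncoated ones, with no overlap (log2 1.05 ± 0.16, adjusted p = 0.000531). Mthfd1, an enzyme of folate metabolism, rose by 0.71. The median of this list was 0.17 and 0.25 in pairs M10 and M9 and 0.53 to 0.86 in the other 3.

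Of 56 genes of ribosome biogenesis 19 rose, with Gar1 and Ebna1bp2, which act in ribosomal RNA processing, at log2 0.67 and 0.50. Their median was 0.82 in pair M8 and -0.04 in pair M10. Without the block 11 rose, and without M numbers 6, 7 or 8 8, 6 and 9 rose. Cytosolic ribosomal protein genes moved the opposite way. Of 77 tested 46 fell, with a median of -0.32 and medians of -0.22 to -0.41 in single pairs. Rps27 had 406, 253, 247, 913 and 455 CPM in coated libraries M6 to M10, against 809, 469, 680, 1446 and 963 CPM in uncoated ones. The levels differed so much between M numbers that the groups overlapped, but each coated library had less than its partner (log2 -1.01 ± 0.10, adjusted p = 5.55e-05). Rps6 fell by 0.86. Without the block 9 of the 77 fell and Rps27 was not called (adjusted p = 0.17). Ribosomal protein genes have many processed pseudogenes, with which reads may be shared.

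A part of the mitochondrial genes encoded in the nucleus rose. Of 75 tested genes of oxidative phosphorylation 32 rose and 2 fell (20 rose without the block, 17 without M number 6 or without M number 7), with the cytochrome c oxidase subunits Cox6a1 and Cox5a at log2 0.62 and 0.74. The subunit gene Cox7a2 fell by 0.84 and Cox7a2l by 0.56, and Cox7a2 had an adjusted p of 0.604 without the block and 0.134 without M number 8. Of 72 genes of the mitochondrial ribosome 27 rose and 1 fell (9 rose without M number 6 and 11 without M number 7), with Mrpl51 at 0.76. Of 7 tested transcripts encoded in mitochondria themselves 0 were called by edgeR, 0 had an unadjusted p under 0.05 and 0 were called by the Wald test of DESeq2. Their median change was -1.50 in pair M6 and 1.64 in pair M9. Glycolysis genes were mixed: of 33 tested 7 rose, with Ldha at 0.67 (1835 ± 527 in coated against 1117 ± 54.2 CPM in uncoated cells, no overlap), and 5 fell, with the glucose transporter Slc2a3 at -0.66. Without M number 6 3 rose and 2 fell, and without M number 7 3 and 3. The falls of this list were near the share of all genes tested that fell (13.8%).

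Of 31 genes of cholesterol and fatty acid synthesis 11 rose, with the sterol demethylase gene Cyp51 at log2 0.96 ± 0.15 (44.5 ± 6.96 in coated against 23.7 ± 4.50 CPM in uncoated cells, no overlap) and Fdps, an enzyme of the mevalonate pathway, at 0.77 (6 of the list rose without M number 6 and 7 without the block). Among 32 proteasome genes 13 rose, with Psmd13 and Psmb3 at 0.53 and 0.39 (8 of the 32 rose without the block, 4 without M number 6 and 2 without M number 7). In the endoplasmic reticulum 11 of 29 chaperone and unfolded protein response genes rose and 1 fell, with the disulfide isomerase Pdia6 at 0.69 and the stress factor Ddit3 at -0.52 (6 rose without M number 6, 7 without M number 7 or without the block). Of 29 genes of the amino acid response 12 rose and 4 fell, with the transfer RNA synthetases Mars1 and Cars at 0.95 and 0.73 and the kinase regulator Trib3 at -1.35 (7 rose without M number 7). These 4 falls were near the share of all genes tested that fell (13.8%). Of 26 antioxidant and metal response genes 10 rose, with thioredoxin Txn1 at 0.65 and the peroxiredoxin Prdx4 at 0.66.

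**Figure D3:**
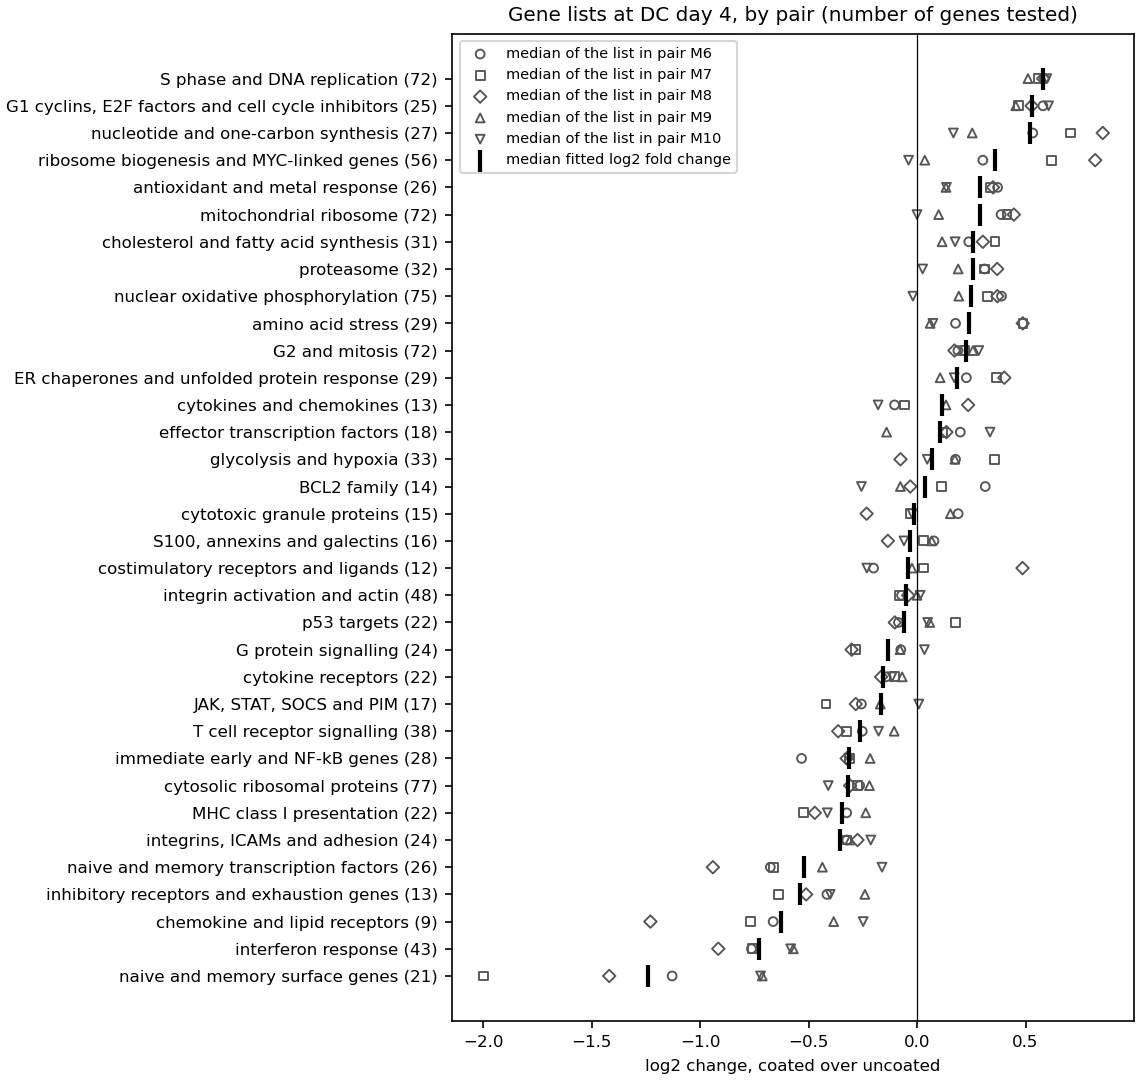
Median log2 change of coated over uncoated cells (x axis) of each gene list with 9 or more tested genes (y axis, number tested in brackets), in each of the 5 pairs (open symbols) and from the fit (black bars). The 5 medians lie close together for S phase genes (0.51 to 0.60) and apart for ribosome biogenesis (-0.04 to 0.82) and naive surface genes (-0.71 to -2).

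A part of the genes of T cell receptor signalling and of the response to it fell. Of 38 tested receptor signalling genes 16 fell (7 without the block, 10 without M number 7), with the kinase Txk at log2 -1.56 ± 0.23 (4.85 ± 0.91 in coated against 14.3 ± 4.26 CPM in uncoated cells) and Trbc1, a constant segment of the receptor beta chain, at -0.54 ± 0.08 (1200 ± 196 against 1729 ± 93.2 CPM). Cd8a, the coreceptor, had log2 0.11 ± 0.10 (adjusted p = 0.433). Of 28 immediate early and NF-kB genes 3 rose and 11 fell. The inhibitors Nfkbia and Tnfaip3, which NF-kB itself induces, fell by 0.79 and 0.90 without overlap, while the phosphatase Dusp5 rose by 0.85 (adjusted p = 0.113 without the block). Without M number 6 2 of the list rose and 5 fell, and without M number 7 1 and 6.

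Inhibitory and costimulatory receptor genes moved singly. Pdcd1 (chr1:94038305-94052553, minus strand), the gene of the inhibitory receptor PD-1, had 42.8, 71.3, 215, 79.4 and 34.6 CPM in coated libraries M6 to M10, against 16.1, 22.5, 42.6, 26.2 and 22.4 CPM in uncoated ones. Both M8 libraries were the highest of their group, and all 5 pairs were higher in the coated library (log2 1.58 ± 0.19, adjusted p = 0.000215, but 0.0523 without the block). It was the 1 gene to rise of 13 inhibitory receptor and exhaustion genes that passed the filter on low counts, of which 5 fell (2 without the block, 3 without M number 6), with Cd5 at -0.66 and Cd274, the gene of PD-L1, at -1.05. With no filter on low counts 3 of 20 such genes rose and 5 fell, and the median log2 change was -0.06, against -0.54 with the filter. Among the genes below the filter, Havcr2, which encodes the inhibitory receptor TIM-3, had 40 counts over the 5 coated and 0 over the 5 uncoated libraries. Entpd1, the gene of the ectonucleotidase CD39, had 50 counts in coated and 16 in uncoated libraries. Other members below the filter differed less: Pdcd1lg2 had 53 and 29 counts, Cd96 73 and 60, Cd244a 6 and 4, Cd200r1 6 and 4, and Btla 22 and 27. Tox, a factor of exhausted cells, had log2 -0.54 ± 0.20 (adjusted p = 0.0647). Of 12 costimulatory genes 2 rose, Cd82 and Icos, and 3 fell, with Cd83 at -0.72 (0 fell without M number 7 and 1 in the Wald test of DESeq2). Icos had an adjusted p of 0.3 without M number 7 and 0.0816 without M number 8, and Cd83 of 0.0502 without M number 7. Of 4 NK type receptor genes 3 fell, with Klrd1 at -1.57 ± 0.33 (11.8 ± 8.75 in coated against 32.6 ± 9.68 CPM in uncoated cells). Of these 3, 1 was called without the block, without M number 7 or without M number 8.

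Of 22 tested p53 target genes 6 rose and 3 fell (5 fell without M number 9), against 13.9% and 13.8% of all genes. Of 14 BCL2 family genes 2 rose and 3 fell (1 and 1 without M numbers 6 or 7, 2 and 1 without M number 8). Falls of p53 target genes and rises of BCL2 family genes were thus near the shares of all genes. The pro-apoptotic Bax rose by log2 0.84 ± 0.09 (302 ± 104 in coated against 166 ± 44.6 CPM in uncoated cells), while Bbc3, another pro-apoptotic gene, fell by 0.67. Of 16 S100, annexin and galectin genes 6 rose and 3 fell, with the calcium-binding S100a6 at 1.09 ± 0.13 (478 ± 161 in coated against 217 ± 37.4 CPM in uncoated cells) and the galectin Lgals3 at 0.81 (3 rose and 1 fell without M number 6 or without M number 7). Where a list above has no count for 1 direction, edgeR called no gene of it in that direction. At an unadjusted p under 0.05, 2 cholesterol genes and 1 nucleotide gene fell, and the count was 0 for the other such lists. The Wald test of DESeq2 called 0 genes in that direction in any of them.

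**Figure D4:**
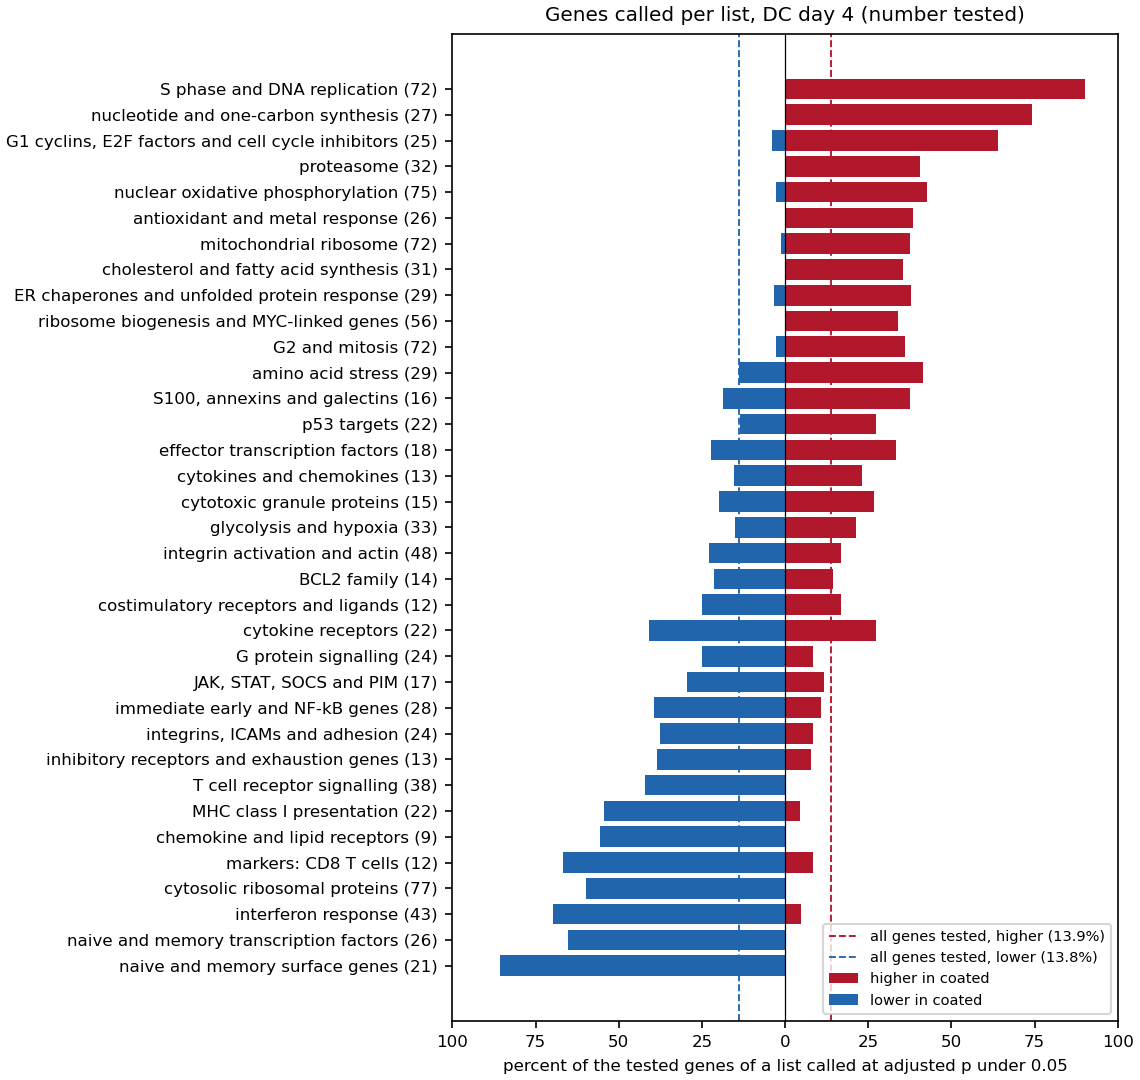
Percent of the tested genes of each list with at least 9 tested (y axis, number tested in brackets) that rose (red, to the right) or fell (blue, to the left) in coated cells at an adjusted p under 0.05. Dashed lines mark the shares of all genes tested, 13.9% and 13.8%. S phase genes (65 of 72) and naive surface genes (18 of 21) lie at the ends of the lists plotted.

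Further genes had large changes outside these groups. Adam8, a membrane-bound metalloprotease, rose by log2 2.25 ± 0.19 (28.5 ± 11.7 in coated against 5.79 ± 1.57 CPM in uncoated cells), Nek6, a kinase of mitosis, by 2.06 ± 0.28 and Ttc39c by 1.95 ± 0.16. Igfbp7, which binds insulin-like growth factors, had 203, 287, 297, 173 and 136 CPM in coated libraries M6 to M10, against 67.8, 76.9, 94.8, 67.5 and 46.0 CPM in uncoated ones (log2 1.62 ± 0.10, adjusted p = 1.2e-06). The protease inhibitor Serpine2 rose by 1.64 ± 0.13. For Adam8, Nek6, Ttc39c, Igfbp7 and Serpine2 the groups did not overlap. Igha, the constant region of immunoglobulin A, rose by 1.81 ± 0.14 (106 ± 54.5 in coated against 29.1 ± 12.1 CPM in uncoated cells), and the tubulin gene Tubb6 by 1.65 ± 0.35, which was not called without M number 7 (adjusted p = 0.0987) or without M number 6 (0.0949).

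Among genes that fell, Slc28a2b, a nucleoside transporter gene, had 7.54, 2.81, 5.32, 12.9 and 8.82 CPM in coated libraries M6 to M10, against 54.8, 40.3, 40.0, 61.7 and 64.9 CPM in uncoated ones, with no overlap (log2 -2.89 ± 0.20). The growth factor receptor Igf1r fell by 2.04 ± 0.24 and Asap1, a regulator of ARF GTPases, by 1.81 ± 0.19. Rps12l1 (log2 -3.58) and Hmgb1-ps8 (-2.40) are annotated as processed pseudogenes, and their reads may come from their parent genes. Rps12l1 had 8.36 and 7.83 CPM in uncoated M6 and M8, 137 to 173 CPM in the other 3 uncoated libraries and 4.07 to 10.6 CPM in coated ones. Its adjusted p of 0.0357 was 0.15, 0.0511, 0.114 and 0.091 without M numbers 7, 8, 9 and 10.

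Markers of other cells were measured in the same libraries. MHC class II transcripts, carried by DCs and B cells, summed to 137.8 to 367.1 CPM in coated libraries and 270.2 to 1683 CPM in uncoated ones, with the highest sum in uncoated M8 (416.5 CPM is the next). Of 6 tested class II genes 4 fell: H2-Aa, H2-Eb1, H2-Oa and Cd74. H2-Aa fell by 1.62 (log2; adjusted p = 0.244 without the block). Of the 6, 1 fell without the block and 4 without M number 8. Dendritic cell markers summed to 319.6 to 432.3 CPM in coated and 278.3 to 331.1 CPM in uncoated libraries, and Cd209a and Siglech were at 0 in all 10. Cst3 alone made up most of these sums (239.4 to 285.5 CPM in coated and 221 to 280.4 CPM in uncoated libraries). Below the filter, Itgax had 7 counts over the coated and 15 over the uncoated libraries, Zbtb46 5 and 9, and Wdfy4 8 and 19. Clec9a had 0 and 4 counts, Clec10a 1 and 1, and Flt3 17 and 6. Of 4 tested dendritic cell markers, Batf3 and Ccl22 rose. Ccl22 had an adjusted p of 0.0809 without M number 8 and was not called in 7 of 9 alternatives, and Batf3 had one of 0.0987 without M number 7. Erythroid transcripts summed to 62.77 to 550 CPM in coated libraries and 60.05 to 1296 CPM in uncoated ones, the highest in uncoated M8, uncoated M9 (668.3 CPM) and coated M8. Of 5 tested erythroid genes Car2 rose and Hba-a1 fell, and Hba-a1 had an adjusted p of 0.06 without M number 8. Macrophage, monocyte and neutrophil markers summed to 14.24 to 31.26 CPM in coated and 23.61 to 128.8 CPM in uncoated libraries, with Lyz1, S100a8, Elane and Mrc1 at 0 in all. B cell markers summed to 2099 to 2614 CPM in coated and 1958 to 2456 CPM in uncoated libraries, and NK cell markers to 11.02 to 22.62 and 8.357 to 24.36 CPM. Of CD8+ T cell markers 8 of 12 fell, and Thy1 rose by 0.22 (adjusted p = 0.108 without M number 8). Without the block 2 of them fell. The part of these transcripts in the results above was not tested. With the marker genes of other cells left out before scaling, 1268 of 9135 genes rose and 1266 fell. This step leaves the RNA of other cells in all other genes, so it cannot measure their part.

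The coating effect at day 4 differed from that in other experiments of the series. Both comparisons below share the 10 libraries of DC day 4, so they are not independent of each other. Against DC-activated cells of day 3 (4 coated and 4 uncoated libraries with 120 in the title), the effect at day 4 was higher for 275 of 9794 genes (2.81%) and lower for 186 (1.9%; 118 without the block), 461 in all (4.71%). Day 3 libraries M2 (coated) and M3 (uncoated) have no partner and add nothing to the effect under the block. Without M numbers 4, 5, 6 and 7, 97, 48, 88 and 102 genes had a higher and 69, 55, 82 and 100 a lower effect. M numbers and day differ together, so a set of samples and a day cannot be told apart. Among the S phase genes, the effect was higher at day 4 for 36 of 72. Their median effect was 0.58 at DC day 4 and -0.15 at DC day 3. Of 15 cytotoxic granule genes tested in that fit, 0 had a higher and 0 a lower effect at day 4. Among 44 interferon response genes 0 had a higher and 3 a lower effect. The median effect of these interferon genes was -0.73 at DC day 4 and -0.295 at DC day 3.

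Upward, the 5 largest called differences in genes that average 20 CPM or more were in Ifitm1, Sdc1, Igfbp7, Fam20a and Il2ra. Ifitm1 had 107.7 in coated against 19.5 CPM in uncoated cells at day 4, and 7.01 in coated against 10.8 CPM in uncoated cells at day 3 (difference of log2 fold changes 2.66 ± 0.36, adjusted p = 0.000947). Sdc1, a surface proteoglycan, had effects of 1.30 ± 0.22 at day 4 and -0.55 ± 0.21 at day 3. Igfbp7 had 1.62 ± 0.10 at day 4 and -0.17 ± 0.13 at day 3 (difference 1.79 ± 0.16). Fam20a, a pseudokinase of the secretory pathway, differed by 1.72 ± 0.31. Il2ra differed by 1.71 ± 0.36 (adjusted p = 0.0227, but up to 0.0949 when M numbers were left out and 0.0537 without M number 8). Downward, Cd7, Hba-a2, Hba-a1, H2-Eb1 and H2-Aa differed by -5.40 to -4.51. All 5 had positive effects at day 3 and negative ones at day 4, and without the block their adjusted p was 0.184 to 0.346. The last 4 are markers of erythroid cells and of MHC class II, and their effects at day 3 were 2.91 to 3.53. Without M number 8 the edgeR fit no longer called Hba-a2, Hba-a1 and H2-Eb1 (adjusted p = 0.0872, 0.0875 and 0.0733).

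Against bead-activated cells of day 3 (5 coated and 3 uncoated libraries), 725 of 9995 genes had a higher effect at DC day 4 (7.25%) and 693 a lower one (6.93%), 1418 in all (14.2%). Coated M3 and M5 of bead day 3 have no partner and add nothing under the block. Without the block 915 genes were called, 404 of them lower. Without M numbers 1, 4 and 7, 380, 319 and 422 had a higher and 445, 361 and 477 a lower effect. Activator, day and M numbers differ together here and cannot be told apart. Ifng differed in direction: 35.8 in coated against 12.3 CPM in uncoated cells at DC day 4, and 7.76 in coated against 29.3 CPM in uncoated cells at bead day 3 (difference 3.29 ± 0.36, adjusted p = 4.6e-05). Gzmb had effects of 2.65 ± 0.40 at DC day 4 and -0.30 ± 0.46 at bead day 3 (difference 2.94 ± 0.61, adjusted p = 0.0275), and the adjusted p was up to 0.0883 when an M number was left out. Gzmc differed by 3.16 ± 0.80 and Rgs16 by 3.24 ± 0.74, with adjusted p of 0.157 and 0.0822 without M number 1. Nek6 differed by 2.74 ± 0.48. Nsg2 differed by -3.64 ± 0.35 (adjusted p = 4.6e-05). Psma2, Cox7a2, Slamf6 and Stat4 differed by -4.87 to -3.43, and had adjusted p of 0.146 to 0.26 without the block. Of 52 interferon response genes tested in that fit 21 had a lower effect at DC day 4 (median -0.72, against 0.06 at bead day 3). Of 72 S phase genes 33 had a higher and 2 a lower effect.

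**Figure D5:**
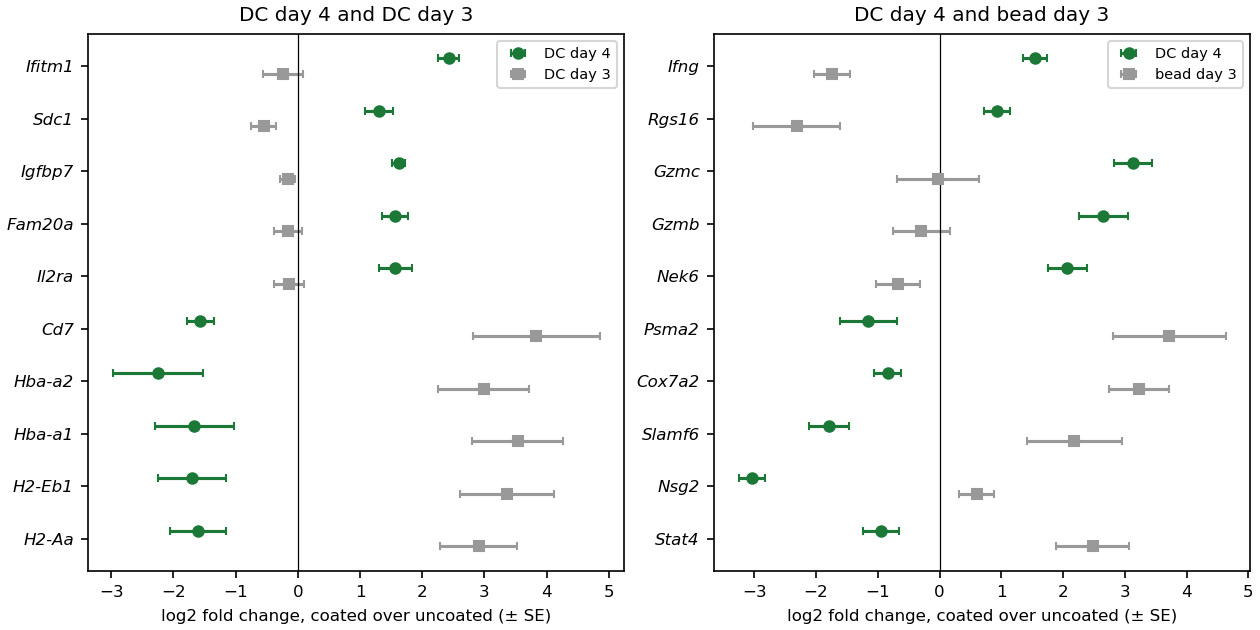
Log2 fold change of coated over uncoated cells (x axis, ± SE) of 10 named genes for each difference, at DC day 4 (green circles) and at DC day 3 or bead day 3 (grey squares). Ifng lies at 1.55 at DC day 4 and -1.74 at bead day 3, and Ifitm1 at 2.43 at DC day 4 and -0.23 at DC day 3.

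Scaled over all 52 libraries, the levels of 3 of these genes place the day 4 groups beside other days (mean ± SD, n = 5 each at day 4, no test). Gzmb had 1046 ± 636 CPM in coated cells of DC day 4, 142.6 ± 15.85 CPM in their uncoated partners, 4207 ± 1086 CPM in coated and 2783 ± 384 CPM in uncoated libraries of DC day 3 (n = 4 each), and 63.6 ± 11.8 CPM at day 0 (n = 9). Tcf7 averaged 213 ± 140 CPM in coated cells of day 4, 839 ± 133 CPM in their uncoated partners, 85.4 ± 32.5 CPM in coated and 70.91 ± 15.01 CPM in uncoated libraries of DC day 3, and 1308 ± 122 CPM at day 0. Nsg2 averaged 8.395 ± 4.324 CPM in coated cells of day 4, 64.6 ± 15.7 CPM in their uncoated partners, 5.88 ± 5.81 CPM in coated and 3.85 ± 3.35 CPM in uncoated libraries of DC day 3, and 176 ± 28.2 CPM at day 0. Mean uncoated levels of Gzmb, Tcf7 and Nsg2 at day 4 lay between those of DC day 3 and of day 0. The mean Gzmb level of coated cells at day 4 was below those of coated and of uncoated libraries of DC day 3. Coated libraries of day 4 spanned 3.89 to 13.6 CPM of Nsg2, within the 1.84 to 14.5 CPM of coated libraries of DC day 3.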

How the data were processed

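Bulk 3′ RNA libraries (MARS-seq) of the series were deposited as 1 table of counts per gene. Per the submitters' processing notes, bcl2fastq, cutadapt, STAR 2.4.2a, HTSeq and DESeq2 were used with the build mm10. How molecular identifiers were treated is not given in the sources used here. The deposited counts were tested with edgeR 4.0.16 in R 4.3.3 (filterByExpr with a minimum count of 10 and a minimum total of 15, TMM scaling, robust quasi-likelihood F test, Benjamini-Hochberg adjustment, threshold 0.05), with M number as a block. The block is used because same-numbered libraries deviated together in all 5 pairs, and all 10 libraries correlated best with their own number. Labels say nothing of the number's meaning. Differences of effect were tested as interactions in fits over both experiments. Standard errors are the log2 fold change over the square root of F, and single pairs use a prior count of 2. The code was tested on simulated data. For the coating effect it recovered 88% of 2-fold changes, and 4.76% of its calls were false. For the difference from DC day 3 these shares were 42% and 3.88%, and for that from bead day 3 34% and 8.91%. Counts of called genes therefore cannot be compared between the coating effect and the differences. Alternatives were size factors and the Wald test of DESeq2 1.42.0, no filter, no block, no markers of other cells, and each M number left out.

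The libraries and gene lists were chosen with earlier results of these data known. Named genes were the 12 with the largest called change of the same sign in all 5 pairs and at least 20 CPM in each direction, the 2 with the smallest p per list and direction, a preset list, and 5 per direction for the differences, leaving out unnamed gene models and variable receptor segments. Cdc6, Orc1, Mcm6, Mcm5, Dtl, Irf7, Ifi203, Gbp2, H2-D1, H2-K1, B2m, Cxcr4, S1pr1, Itga4, Irf8, Rab27a, Ifitm2, Cd74, Gzmd, Gzme and Gzmf were chosen after their values were seen. So were Havcr2, Entpd1, Pdcd1lg2, Cd96, Cd244a, Cd200r1, Btla, Cst3, Itgax, Zbtb46, Wdfy4, Clec9a, Clec10a and Flt3. Gene positions are from GENCODE vM21 (GRCm38). No 2 replicate libraries were identical or agreed within sampling noise (lowest chi-square per degree of freedom 3.074). Some list genes are not reported here.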

Additional observations from a re-analysis of the deposited data

Results flagged for a closer look

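In 40 of 344 groups of 5 libraries (11.6%) 1 library lay far from the other 4 by Dixon's test at its 95% critical value for groups of 5 (0.71). For independent groups of normal spread about 1 in 20 would be flagged. These groups share libraries and genes, and some genes were chosen after their values were seen. The 11.6% therefore cannot be set against that rate. Of the 40, 11 were coated M8 and 14 uncoated M8. Coated M8 was high in Bak1 (164.9, others 88.16 to 107.8), Car2 (21.95, others 8.265 to 11.53), Ccl22 (45.89, others 13.09 to 19.74), Cish (174.9, others 23.06 to 58.37), Dusp5 (127, others 66.54 to 82.06), H2-Aa (60.52, others 6.735 to 14.23), Hba-a1 (41.23, others 0.4436 to 11.48), Irf8 (311.9, others 71.21 to 116.7), Pdcd1 (214.8, others 34.59 to 79.43). Coated M7 was high in Cox6a1 (1398, others 966.5 to 1089). Coated M9 was high in B2m (609.3, others 28.34 to 31.92), Serpinb6b (35.81, others 5.613 to 14.19). Coated M10 was high in Il4ra (84.77, others 49.21 to 58.31), Klf3 (11.53, others 3.673 to 4.655), Tnfrsf26 (14.92, others 3.325 to 6.428). Coated M10 was low in Psmb3 (211.6, others 239.5 to 248.7). Uncoated M8 was high in Car2 (10.44, others 4.132 to 5.917), Ccl22 (26.98, others 10.52 to 13.38), Cd68 (20.88, others 8.193 to 8.725), Cxcr4 (45.25, others 9.331 to 14.54), H2-Aa (301.1, others 13.62 to 53.51), Ifng (21.75, others 9.444 to 9.904), Irf8 (116.6, others 57.26 to 62.13), Jund (697.9, others 326.1 to 378.1). Uncoated M8 was low in Asap1 (139.2, others 203.2 to 226.1), Emb (208, others 269.2 to 292.8), Klrk1 (255.8, others 341.7 to 376.4). Uncoated M7 was low in Ighd (20.48, others 30.46 to 34.24). Uncoated M9 was high in Mrpl51 (83.18, others 60.21 to 65.77). Uncoated M9 was low in Tubb4b (566, others 651.8 to 671.8). Uncoated M10 was high in H2-D1 (3062, others 2516 to 2634), Nsg2 (90.9, others 51.34 to 61.07). Uncoated M10 was low in Ebna1bp2 (46.63, others 59.43 to 64.39), Ikzf2 (12.4, others 16.4 to 18.03). These values are in CPM, each beside the range of the other 4 libraries of its group.

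Summed levels stood apart too. Mitochondrially encoded transcripts summed to 1127 CPM in coated M8 (others 223.8 to 444.9). Erythroid markers summed to 550 CPM in coated M8 (others 62.77 to 86.78). MHC class II transcripts summed to 1683 CPM (others 270.2 to 416.5), macrophage, monocyte and neutrophil markers to 128.8 CPM (others 23.61 to 27.34) and NK cell markers to 24.36 CPM (others 8.357 to 12.21) in uncoated M8. B cell markers summed to 1958 CPM in uncoated M9 (others 2316 to 2456).

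The coating effect differed between experiments by the interaction test of edgeR. As DC day 4 minus DC day 3, the differences of log2 fold changes were Ifitm1 (2.664), Sdc1 (1.852), Igfbp7 (1.787), Fam20a (1.72), Il2ra (1.711), Cd7 (-5.404), Hba-a2 (-5.235), Hba-a1 (-5.2), H2-Eb1 (-5.065) and H2-Aa (-4.514). As DC day 4 minus bead day 3, they were Ifng (3.288), Rgs16 (3.242), Gzmc (3.161), Gzmb (2.944), Nek6 (2.743), Psma2 (-4.872), Cox7a2 (-4.062), Slamf6 (-3.976), Nsg2 (-3.635) and Stat4 (-3.427). Both sets share the DC day 4 libraries.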

How the results depend on the processing

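Counts of called genes depended on the block, the tool and single M numbers, and the cause was not tested. For the coating effect 784 genes were higher in the Wald test of DESeq2 and 817 lower with no replicate block. With an M number left out, 605 to 1235 were higher and 724 to 1235 lower. For the difference from DC day 3, 428 were higher with no filter on low counts and 118 lower with no block, and leaving out M numbers gave 48 to 286 higher and 55 to 222 lower. For the difference from bead day 3, 404 were lower with no block, and leaving out M numbers gave 319 to 768 higher and 361 to 747 lower. Of 148 named genes tested at day 4, 138 were called. Of these, 106 were called in every fit that left out an M number, 110 without the block and 95 in every alternative run, and none of the 138 changed direction in any. Among the 10 not called, Itgb2 ran from log2 -0.05 to 0.13 and Myc from -0.16 to 0.03. Of the 10 genes named for each difference, 4 and 4 were called in every such left-out fit. With 5 libraries per group and 1140327 to 4455543 counts per library, genes of low level were filtered out and could not be tested.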
